A study of Solanum lycopersicum with 30 samples.

Results

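PT1 and PT2 are the genes of a pair of phosphate transporters of the tomato root. Each is read by 1 probe set of an Affymetrix tomato array. They were chosen by gene symbol in the platform annotation and are 2 of the 10038 probe sets left without array and reporter controls. Both passed the filter on low signals, which left 7528 probe sets.

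The study measured total RNA of tomato (Solanum lycopersicum) roots on 30 arrays, in 6 groups of 5 samples that the design text calls biological replicates. The groups cross 2 genotypes, wild type (WT) and rmc, a mutant whose roots are poorly colonized by mycorrhizal fungi, with 3 treatments. Plants were 8 weeks old when set into field soil and grew there for a further 5 weeks. A patch of soil was then injected with water, a low dose of ammonium (low N) or a high dose (high N), and the roots of that patch were taken 24 hours later. Ammonium is labelled 10 and 100 µM in WT, but 6.5 and 65 ppm in rmc. Responses to N in WT and rmc are therefore set side by side with doses labelled in different units. The same holds for rmc against WT in low N and in high N, and so for the mean of the 3 treatments. In these, genotype and labelled dose cannot be told apart. The labels do not describe the rmc line further.

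Plants take up phosphate from soil as an anion through proton-coupled transporters of the PHT1 family, to which PT1 and PT2 belong. In tomato, both are known from the outer cell layers of the root, and their transcripts are known to rise when the plant lacks phosphate. Mycorrhizal roots also receive phosphate from the fungus through other members of the family, of which PT4 is the best known in tomato, and the direct uptake pathway is often less active in such roots. PT3 and PT4 themselves were not analysed here. In the RefSeq gene table of assembly SLM_r2.1, PT3 is the gene next to PT1, whereas PT2 lies beside genes without a symbol. Signal on a probe set from a closely related family member was not tested, because probe sequences were not used here.

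The values are log2 MAS5 signals with the same trimmed mean on every array. Within groups, pairs of arrays correlated at 0.937 to 0.985 over the probe sets, and precision is limited by having 5 arrays in each group. The root epidermis genes AMT1-2, LHA1, LHA2 and LKT1 had mean log2 signals of 8.49 to 11.18, while ext1 averaged 1.83, below the highest negative control reading of 3.36. Of the 7 shoot photosynthesis probe sets, those of CAB4, CAB5 and CAB6A averaged 4.46, 1.89 and 2.79 and that of PSBR 10.10, and the list's mean per group lay between 4.66 and 5.21. LOX1.1, a lipoxygenase gene, was the only annotated member of the mycorrhiza list, so colonization itself could not be checked. The genotype labels were checked with 14 probe sets, all lower in rmc and chosen after the values were seen, that separated the genotypes by over 0.3 on the low N and high N arrays. On a scale with the WT mean at 0 and the rmc mean at 1, their median lay between -0.112 and 0.139 on the WT water arrays and between 0.832 and 1.06 on the rmc water arrays. On WT high N replicate 3 it lay at 0.508.

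Both transporters were well above the negative controls on every array. In WT water, PT1 read 9.84, 9.89, 9.82, 9.84 and 10.03 in replicates 1 to 5, a mean of 9.88 ± 0.09 (SD, n = 5). In WT low N it read 10.10, 10.17, 10.41, 10.37 and 10.40 (10.29 ± 0.14), and in WT high N 10.18, 10.51, 10.65, 10.82 and 10.89 (10.61 ± 0.28). In WT, every low N and high N array thus lay above every water array, while low N and high N overlapped.

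In rmc water, PT1 read 10.98, 10.24, 10.24, 9.69 and 9.67 (10.16 ± 0.54). In rmc low N it read 10.74, 10.22, 10.66, 10.75 and 10.58 (10.59 ± 0.22), and in rmc high N 10.93, 10.97, 10.96, 11.20 and 11.33 (11.08 ± 0.18). Replicate 1 of rmc water was as high as the high N arrays, so these groups overlapped, and high N lay wholly above low N.

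PT2 in WT water read 8.97, 8.46, 8.83, 8.46 and 8.79 (8.70 ± 0.23). In WT low N it read 9.42, 9.01, 9.40, 9.48 and 8.72 (9.21 ± 0.33), and in WT high N 8.47, 9.18, 10.09, 9.28 and 9.27 (9.26 ± 0.57). The highest WT array was high N replicate 3, the array at 0.508 on the genotype scale, and the 3 WT groups overlapped.

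PT2 in rmc water read 11.15, 10.13, 10.81, 8.36 and 9.90 (10.07 ± 1.08). In rmc low N it read 10.37, 9.88, 10.52, 10.82 and 9.23 (10.16 ± 0.62), and in rmc high N 11.02, 9.98, 10.73, 11.03 and 10.83 (10.72 ± 0.43). Replicate 4 of rmc water read 8.36, the lowest PT2 value of all 30 arrays, although its genotype position was 1.06. The other 14 rmc arrays read from 9.23 upward, above all WT water arrays.

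**Figure D1:**
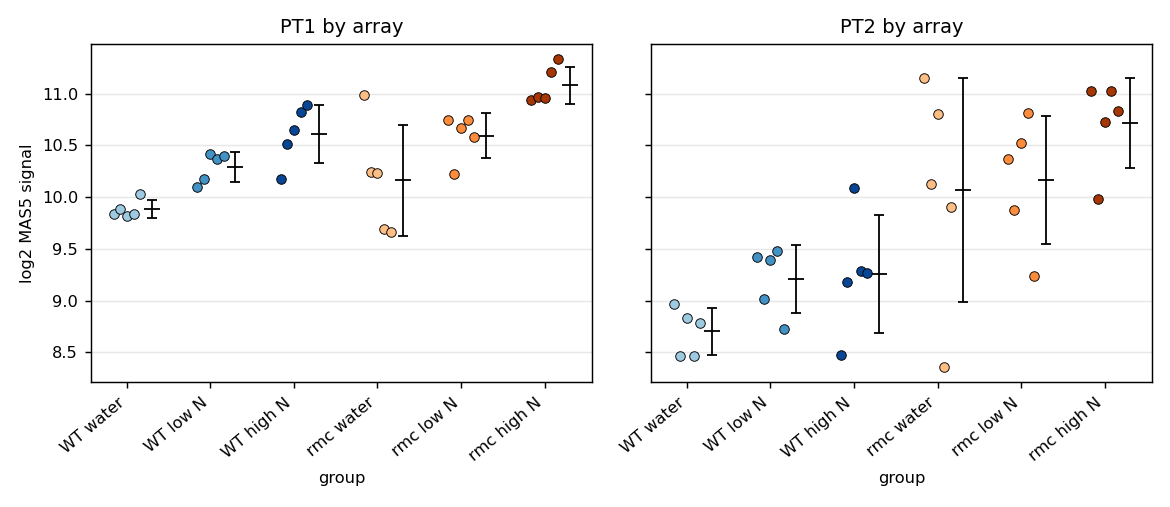
Log2 MAS5 signal of PT1 (left) and PT2 (right) on each of the 30 arrays, by group, with replicates 1 to 5 from left to right and the group mean ± SD (n = 5) as a bar beside the points. PT1 means climb from water to low N to high N, in WT between 9.88 and 10.61 and in rmc between 10.16 and 11.08, whereas PT2 means are 8.70 to 9.26 in WT and 10.07 to 10.72 in rmc.

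The order of the group means differed between the genes. For PT1 it ran WT water, rmc water, WT low N, rmc low N, WT high N and rmc high N. The means thus sorted by treatment first and by genotype within each treatment. The steps between treatments lay within the spread. They were 0.13 from rmc water to WT low N (pooled SD 0.39) and 0.02 from rmc low N to WT high N (0.25). Of the 5 steps in that order, the one to rmc low N (0.30, against a pooled SD of 0.18) and the last, to rmc high N (0.47, against 0.24), were larger than the spread of the groups beside them. Only the last separated groups that did not overlap. For PT2 the order was WT water, WT low N, WT high N, rmc water, rmc low N and rmc high N. Every WT mean was below every rmc mean, but the PT2 step between genotypes, from WT high N to rmc water, lay within the spread (0.81, against a pooled SD of 0.86). Its steps from WT water to WT low N (0.50, against a pooled SD of 0.28) and from rmc low N to rmc high N (0.55, against 0.54) exceeded the spread, and all neighbours in that order overlapped.

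The same contrast shows in the shares of variation over the 30 arrays. Treatment accounted for 53.9% of the sum of squares of PT1 and genotype for 14.7%. For PT2, treatment accounted for 7.88% and genotype for 51.9%. The medians over all 7528 probe sets were 14.3% for treatment and 4.77% for genotype, which places PT1 at the 98.1th percentile for treatment and PT2 at the 98.8th for genotype. The interaction of treatment and genotype accounted for 0.868% in PT1 and 1.56% in PT2, below the median of 3.21%. Each share is of the gene's own total, so a smaller share is not by itself a smaller change. With high N over both genotypes PT1 differed by 0.82 and PT2 by 0.60, and an unequal change was not shown (exact permutation p = 0.321).

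PT1 rose with high N in both genotypes. Low N and high N were set against the same water arrays, so those comparisons share their controls. Counts of arrays, here and below, are of arrays beyond the mean of the group they were set against. In bulk roots, a change in the number of cells of a type and a change in RNA per cell cannot be told apart. In WT, PT1 was 1.65-fold higher with high N than with water (log2 difference 0.73, SE 0.17, limma adjusted p = 0.00956), on 5 of 5 arrays. In this comparison 18.3% of all probe sets were called (8.66% of all upward), and 9.23% had high N arrays wholly above the water arrays as PT1 did. In rmc it was 1.89-fold higher (0.92, SE 0.17, limma adjusted p = 0.00346), also on 5 of 5 arrays, where 4.34% of probe sets were called (3.28% of all upward). That share ran from 0.691% to 13.7% on leaving out 1 array. A rise called in both genotypes was found for 197 probe sets (2.62%). Averaged over genotypes, the rise was 1.77-fold (log2 difference 0.82, 95% interval 0.57 to 1.07, limma adjusted p = 5.5e-05), on 10 of 10 arrays, beside 34.1% called and 16.1% called upward. PT1 is also among the 5.62% of probe sets called for both high N and genotype. Its means climbed from water to low N to high N in each genotype, as those of 12.8% of probe sets did.

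Low N gave smaller values that did not pass. PT1 differed by 0.41 for WT (limma adjusted p = 0.759), by 0.43 for rmc (adjusted p = 0.996) and by 0.42 with the genotypes averaged (95% interval 0.17 to 0.67, limma adjusted p = 0.391), above the water mean on 10 of 10 arrays. The WT low N arrays all lay above the WT water arrays, which held for 1.04% of probe sets. Calls at low N were rare over the whole table, with 0.0266% in WT, 0.0133% in rmc and 0.0531% over both. Without rmc water replicate 1, the array with the high PT1 reading, the difference over both genotypes was 0.52 and passed (limma adjusted p = 0.0348). From low N to high N, PT1 differed by 0.32 in WT (adjusted p = 0.562) and by 0.49 in rmc (limma adjusted p = 0.113). In WT that comparison had 0 calls by limma and 672 probe sets with an unadjusted p under 0.05, and in rmc 0.704% were called and 1.21% had high N arrays wholly above low N arrays, as PT1 did.

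Some control values moved with high N beside PT1. Over both genotypes the poly-A spikes, control transcripts that do not come from the plant, were lower by 0.608 in high N than in water (exact permutation p = 0.000157, adjusted over 108 tests p = 0.0085). The 3' minus 5' difference of GAPDH was lower by 0.346 (exact permutation p = 3.15e-05, adjusted p = 0.0034). At low N over both genotypes it was lower by 0.153 (exact permutation p = 0.000441, adjusted p = 0.0159), beside the PT1 difference of 0.42. The 3' minus 5' difference of actin did not pass. It differed by -0.037 with high N (exact permutation p = 0.228, adjusted p = 0.586) and by -0.0029 with low N (exact permutation p = 0.929, adjusted p = 0.947). Scaled to the poly-A spikes, PT1 stood 1.43 higher over both genotypes (limma adjusted p = 6.05e-06), against a shift of 0.608 for all probe sets. The rise in WT no longer passed on that scale (1.06, limma adjusted p = 0.0874), and that in rmc did not pass when only its 2 groups were fitted (0.92, adjusted p = 0.191). The part of RNA quality in these differences was not tested.

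PT2 did not pass for any comparison of N with water. With high N its log2 difference was 0.56 in WT (adjusted p = 0.281) and 0.65 in rmc (limma adjusted p = 0.294). Over both genotypes it was 0.60, a 1.52-fold difference (95% interval of the log2 value 0.07 to 1.14, limma adjusted p = 0.0743) in the same direction on 8 of 10 arrays. That value was 0.39 without rmc water replicate 4 (limma adjusted p = 0.139). It was 0.70 without WT high N replicate 1 (limma adjusted p = 0.0425) and 0.74 without rmc water replicate 1 (adjusted p = 0.0304), and those passed. Without WT high N replicate 3 the WT value was 0.35, and without rmc water replicate 4 the rmc value was 0.22. With low N, PT2 differed by 0.50 in WT (adjusted p = 0.759) and by 0.09 in rmc (limma adjusted p = 0.998). Without rmc water replicate 4, the low N value in rmc became -0.33 and that over both genotypes went from 0.30 to 0.09. From low N to high N, PT2 differed by 0.05 in WT and by 0.55 in rmc (limma adjusted p = 0.97 and 0.352), the latter 0.32 without rmc low N replicate 5. The intervals of PT2 were wider throughout, since its SD within groups was 0.403 in WT and 0.761 in rmc, at the 84.0th and 93.1th percentiles of the table, against 0.191 and 0.350 for PT1.

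**Figure D2:**
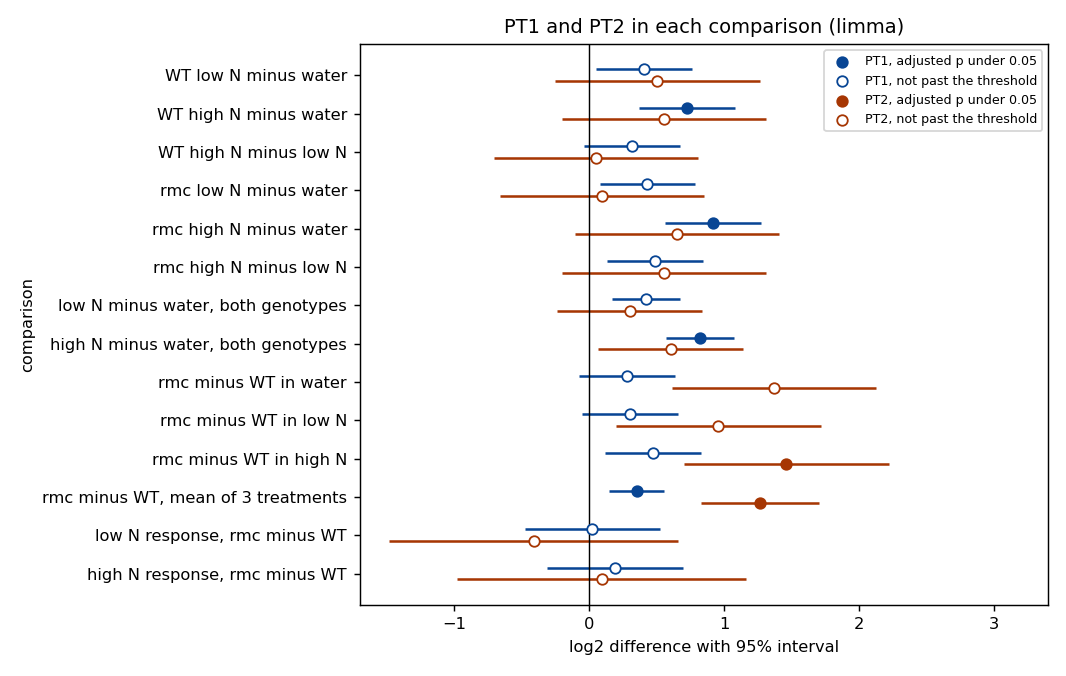
Log2 differences of PT1 (blue) and PT2 (brown) in the 14 comparisons, with 95% intervals from the limma fit; filled points passed an adjusted p of 0.05 and open points did not. PT1 is filled for its 3 high N minus water values (0.73, 0.92 and 0.82) and for rmc against WT averaged over the 3 treatments (0.35), and PT2 for rmc against WT in high N and averaged (1.46 and 1.26).

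PT2 was higher in rmc than in WT. Averaged over the 3 treatments, it was 2.40-fold higher (log2 difference 1.26, SE 0.21, limma adjusted p = 0.00022), beside 12.3% of probe sets called and 4.72% called higher in rmc. Of the rmc arrays, 14 of 15 lay above the WT mean of their treatment, but the genotypes overlapped in each treatment. The array rmc low N replicate 5, at 9.23, was just above the WT low N mean of 9.21. By treatment PT2 was 2.58-fold higher in water (1.37, limma adjusted p = 0.118). In low N it was 1.94-fold higher (0.96, adjusted p = 0.191, with 1.95% of probe sets called) and in high N 2.75-fold (1.46, adjusted p = 0.0472). Of these 3 values, that in high N passed, in a comparison with 1.09% called and 0.465% called higher in rmc. It did not pass when only its groups were fitted (limma adjusted p = 0.120), after quantile normalization (0.0564) or without moderation (0.0647). It failed in 8 of 10 fits that left out 1 array of the groups compared, with limma adjusted p from 0.0202 to 0.166. The water value did not pass with all arrays, and without rmc water replicate 4 it was 1.79 and passed (limma adjusted p = 0.00144), beside 0.478% called with all arrays. Only in water are the genotypes compared without ammonium. In low N and high N, and so in the mean, genotype cannot be told apart from the doses labelled in different units.

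PT1 was also higher in rmc, by less. Averaged over treatments it was 1.28-fold higher (log2 difference 0.35, SE 0.10, limma adjusted p = 0.0201), on 12 of 15 arrays. The differences were 0.28 in water, 0.30 in low N and 0.47 in high N, none of which passed (limma adjusted p = 0.729, 0.383 and 0.225), although the rmc high N arrays lay wholly above the WT high N arrays, as for 1.04% of probe sets. Without rmc water replicate 1 the water value was 0.07. The limit of labelled dose holds for the mean, low N and high N values of PT1 too. Poly-A scaling lowered the mean difference to 0.22 (limma adjusted p = 0.454), while that of PT2 stayed at 1.13 (adjusted p = 0.000114), against a shift of -0.127 for all probe sets. In water the poly-A spikes were 0.359 higher in rmc than in WT (exact permutation p = 0.0317, adjusted p = 0.245). Around their group means, PT2 and the spikes had a correlation of 0.525 over the 30 arrays and PT1 and the spikes one of 0.093, and their part in the result was not tested. With the averaged signal of 8 probe sets for dividing cells of root tips, PT2 had one of -0.472 and PT1 one of -0.276. With the hybridization spikes, a separate set of array controls, PT2 had one of 0.425 and PT1 one of 0.308.

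No difference between genotypes in the N response passed for either gene. The high N response was larger in rmc by 0.19 for PT1 (95% interval -0.31 to 0.69) and by 0.09 for PT2 (-0.98 to 1.16), both with a limma adjusted p = 0.999. For low N the values were 0.02 (-0.48 to 0.52) and -0.41 (-1.48 to 0.66), with limma adjusted p = 0.986 and 0.928. Calls for these differences were 0.0133% of probe sets at high N, and at low N 0 by limma, with 184 probe sets at an unadjusted p under 0.05.

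Subtracting PT2 from PT1 on the same array shows whether the genes changed unequally, since a factor common to the array cancels. The difference was 1.18 ± 0.24 in WT water, 1.08 ± 0.37 in WT low N and 1.35 ± 0.46 in WT high N. In rmc it was 0.09 ± 0.73, 0.43 ± 0.54 and 0.36 ± 0.41 in the same order (SD, n = 5 each). Averaged over treatments it was 0.91 lower in rmc, on 13 of 15 arrays (two-sided exact permutation p = 7e-05, adjusted over 12 tests p = 0.00084), so the difference between rmc and WT arrays was larger for PT2 than for PT1. That mean includes low N and high N, where the labelled doses of the genotypes differ in unit. In water and in high N the shifts were -1.09 and -0.99 (exact permutation p = 0.0317 and p = 0.0159, adjusted p = 0.127 and p = 0.0952). Neither passed after adjustment, and the smallest p that 5 arrays against 5 allow is 0.00794. Without rmc water replicate 4 the shift in water was -1.40 and passed (exact permutation, adjusted p = 0.0476).

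For treatment, no unequal change passed the test. From water to high N the difference between the genes shifted by 0.17 for WT, by 0.27 for rmc and by 0.22 with the genotypes averaged (exact permutation p = 0.492, p = 0.468 and p = 0.321). With high N, PT1 passed and PT2 did not, and a difference between these responses is not shown.

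**Figure D3:**
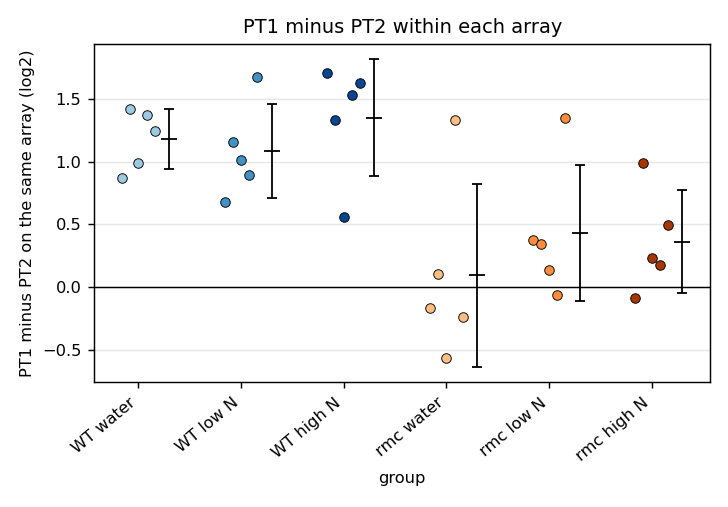
PT1 minus PT2 on the same array (log2), for 5 arrays per group with the group mean ± SD beside them. WT groups average 1.08 to 1.35 and rmc groups 0.09 to 0.43, and rmc water replicate 4, at 1.33, rmc low N replicate 5, at 1.35, and rmc high N replicate 2, at 0.99, lie within the range of the WT values.

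Within groups, arrays that read high for one gene often read high for the other, but the correlation did not pass after adjustment. After removal of the group means, PT1 and PT2 had a Pearson r of 0.627 over 30 arrays (permutation p = 0.0181) and a Spearman rho of 0.468 (permutation p = 0.0256). Without the 2 arrays farthest from the median of PT1, rmc high N replicates 4 and 5, r was 0.624 (permutation p = 0.025). Those arrays were picked by signal and not by deviation from the group mean. Kept in were rmc water replicates 1 and 4, at 11.15 and 8.36 the highest and lowest of their group for PT2. Whether r depends on them is therefore not shown. In the 15 rmc arrays r was 0.693 (permutation p = 0.0389) and in the 15 WT arrays 0.399 (permutation p = 0.318), and the difference between these was not tested. With the Benjamini-Hochberg adjustment over all arrays, WT arrays and rmc arrays, p was 0.0544, 0.318 and 0.0584 in that order. The arrays share the authors' scaling, and after poly-A scaling r was 0.470.

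**Figure D4:**
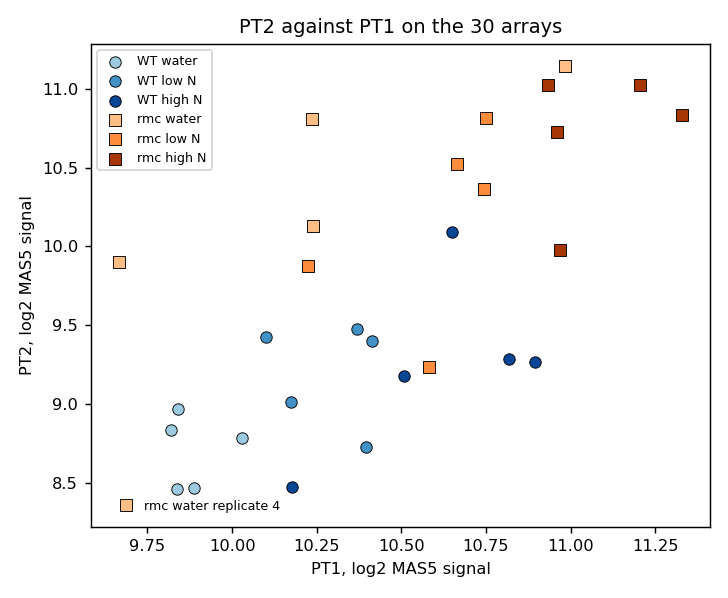
Log2 MAS5 signal of PT2 against that of PT1 on each array, with circles for WT and squares for rmc. Within the PT1 range of WT, 9.82 to 10.89, the rmc arrays other than low N replicate 5 lie above the WT arrays of similar PT1 signal. Every rmc high N array and rmc water replicate 1 read higher for PT1 than any WT array. The array rmc low N replicate 5, at 10.58 for PT1 and 9.23 for PT2, lies among the WT arrays. The array rmc water replicate 4, at 9.69 and 8.36, lies just below them for both genes.

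The probe sets most like each gene, PT1 and PT2 themselves left aside, were taken from the 688 tested with a gene symbol. For PT1 they were PAP1 (Pearson r = 0.826 over the 30 arrays), Mdip1 (0.785), ST3 (0.754), LOC543639 (0.745) and the enolase gene PGH1 (0.688). PT2 itself had an r of 0.704 with PT1, above that of PGH1. For PT2 they were psi14A (0.886), 2 probe sets of psi14B (0.862 and 0.856), IMP3 (0.853) and ail (0.840). The psi14 genes are known in tomato as genes induced by phosphate starvation. The 30 arrays share the group differences, and genes picked for likeness to PT2 tend to share its difference between genotypes, so these are descriptions and carry no test.

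Psi14A had group means of 4.10 to 4.78 in WT and 6.67 to 8.12 in rmc. In rmc water it read 8.13, 6.99, 8.55, 2.31 and 7.36. Replicate 4 of rmc water was thus the only array of its group as low as the WT water arrays; the gene was picked for its likeness to PT2, so this adds nothing independent to the low PT2 reading there. The psi14B probe set most like PT2 read 4.92 to 10.42 in rmc high N and 2.25 to 3.48 in WT water, where signals lay about the highest negative control reading of 3.36, so that no fold between them is given. Both psi14 probe sets passed the filter on mean signal through their rmc arrays.

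The phosphate list held 6 further annotated genes, all of which passed the filter. They are TPSI1, a gene known from phosphate starvation in tomato, the ribonuclease genes rnalx and RNALE, the PEP carboxylase kinase genes PPCK1 and PPCK2, and APS1, an acid phosphatase gene. The kinases activate PEP carboxylase, which feeds organic acid synthesis, and the ribonucleases and the phosphatase can release phosphate from RNA and from organic compounds. Averaged over treatments, 3 of 6 were higher in rmc and 0 lower by limma, beside 12.3% called over the table and 4.72% called higher. At an unadjusted p under 0.05, 4 were higher and 1 lower. The list median was 0.46, against 0.00 for all probe sets. In water, low N and high N taken singly, 0 of 6 passed. At an unadjusted p under 0.05, 2, 3 and 4 were then higher and 0, 1 and 0 lower. Genotype cannot be told apart from labelled dose in low N, in high N and in the mean.

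The 3 were rnalx (1.58, limma adjusted p = 0.000371), PPCK2 (0.79, adjusted p = 0.0125) and PPCK1 (0.60, adjusted p = 0.00226). Each had 14 of 15 rmc arrays above the WT mean of their treatment. In water alone they differed by 1.62, 0.71 and 0.51 (limma adjusted p = 0.164, 0.594 and 0.455). TPSI1 was higher by 0.32 without passing (limma adjusted p = 0.0912). Its rmc arrays lay above the WT mean on 15 of 15, but the groups overlapped in each treatment. WT high N replicate 4 read 12.06 for TPSI1, above every rmc high N array (highest 12.05). RNALE had the opposite sign (-1.10, adjusted p = 0.057), and APS1 stood at 0.01. The size for PT2, 1.26, lay between those of rnalx and PPCK2, and that for PT1, 0.35, near that of TPSI1.

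With high N over both genotypes, 1 of the 6 rose, APS1 (0.50, limma adjusted p = 0.0122), on 10 of 10 arrays, and 0 fell (at an unadjusted p under 0.05, 1 did, PPCK1), beside 34.1% called. The list median was 0.16, against -0.01 for all probe sets. PPCK1 had a difference of -0.33 (adjusted p = 0.0945), TPSI1 one of -0.17, rnalx one of 0.32 and RNALE one of 0.74, without passing, and PPCK2 stood at 0.00. At low N over both genotypes 0 of 6 passed limma's test, and 0 had an unadjusted p under 0.05. By genotype, APS1 had a high N difference of 0.66 in WT (limma adjusted p = 0.0333, beside 18.3% of probe sets called and 8.66% called upward) and of 0.34 in rmc (adjusted p = 0.343).

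Replicate 4 of rmc water was the lowest array of its group for PT2 and for 5 of the 6 listed genes, all but APS1. For PT1 it read 9.69, and replicate 5 was lower at 9.67. PPCK1 read 9.39 there, against 10.37 to 10.67 on the other rmc water arrays, and PPCK2 6.78 against 8.56 to 9.28.

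**Figure D5:**
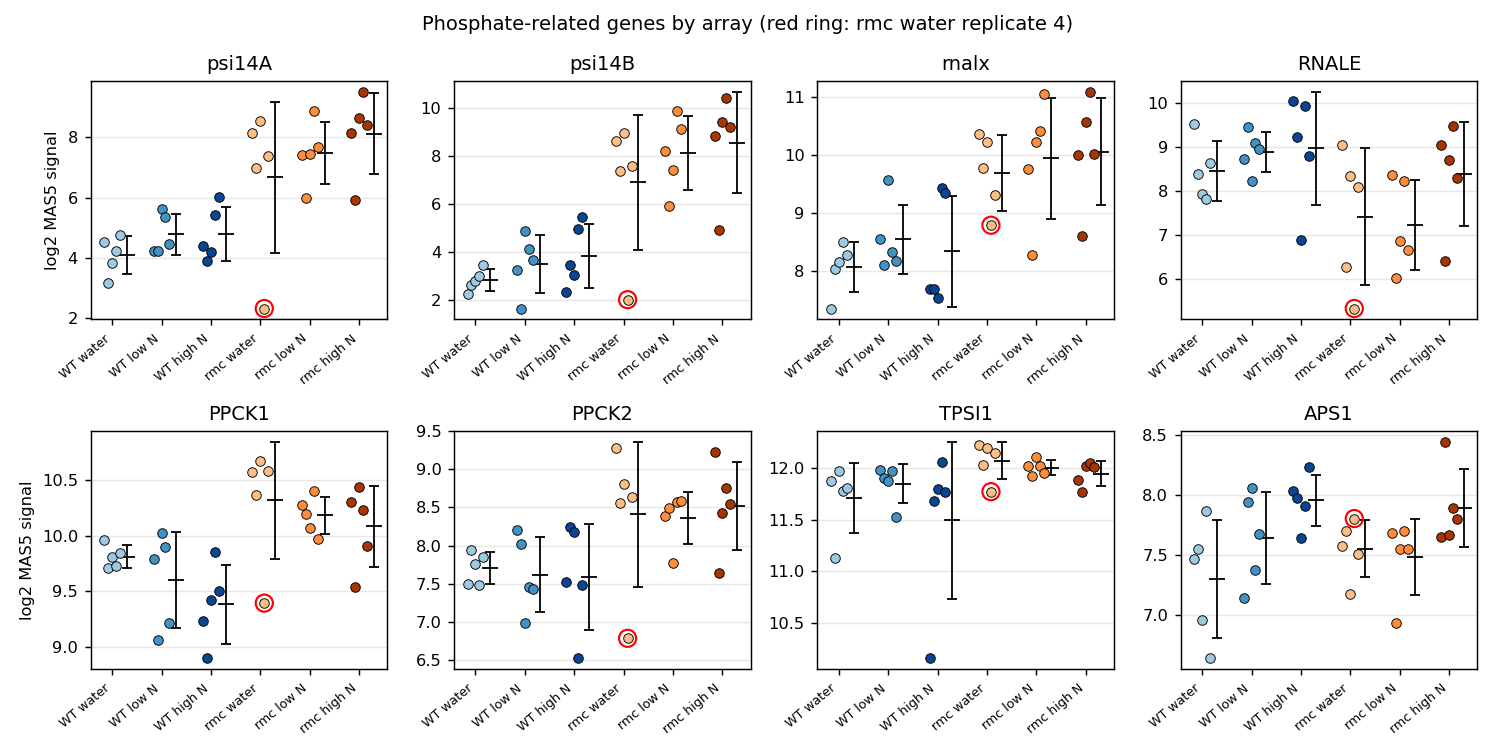
Log2 MAS5 signal of 8 phosphate-related genes by array, with the group mean ± SD beside the points and a red ring on rmc water replicate 4; each panel has its own scale. The psi14 genes, rnalx, PPCK1 and PPCK2 have higher means in the rmc groups, and the ringed array reads 2.31 for psi14A and 6.78 for PPCK2.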

How the data were processed

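The authors deposited log2 signals made, according to the submitters' processing notes, with MAS5 in Affymetrix Expression Console (no version or setting is recorded there). In linear form the 2% trimmed mean was 500 on every array, and 2.12% to 3.07% of probe sets stood at 0. Labels gave the groups, and nothing in them gives plants, pools or batches, so p-values measure the spread between these samples.

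Of 10209 probe sets, 108 array and 63 reporter controls and then the lowest 25% by mean signal (under 5.61) were left out. Differences were fitted with limma 3.58.1 in R 4.3.3 (6 group means, 30 arrays, eBayes with trend) and adjusted by Benjamini-Hochberg over 7528 probe sets, with a threshold of 0.05. PT1 minus PT2 was compared by two-sided exact permutation (12 tests) and control values likewise (108 tests). Correlations used 100000 permutations within groups. The fit was tested on simulated data. Python 3.11.15 handled tables.

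Members and lists were chosen with earlier results of these data known; the genotype check, the psi14 values by array and the per-group variance were added after the values were seen. PAP1 and ChrC were dropped from the phosphate list because the tables do not annotate them as acid phosphatases. Named genes are PT1, PT2, the list, and the 5 named probe sets other than PT1 and PT2 with the highest r to each. Alternatives covered filter, scaling, pseudocount, weights, moderation, replicate block and left-out arrays. In 1 of 15 pairs of groups, WT and rmc high N, every same-numbered pair of arrays had a correlation of deviations over 0.1 (lowest 0.109), as the data alone show.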

Additional observations from a re-analysis of the deposited data

Results flagged for a closer look

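A sample far from the rest of its group was looked for in 54 groups of 5 arrays (PT1, PT2, their difference and the phosphate list), where chance alone gives about 1 in 20, and 8 were found. PT2 read 9.98 on rmc high N replicate 2, against 10.73 to 11.03 on the other arrays of that group. On rmc water replicate 4, PPCK1 read 9.39 (others 10.37 to 10.67) and PPCK2 read 6.78 (others 8.56 to 9.28), and PT2, at 8.36, was the lowest of its group without standing apart by this measure. PPCK2 read 7.78 on rmc low N replicate 3 (others 8.39 to 8.59), and APS1 read 6.93 on rmc low N replicate 2 (others 7.54 to 7.70). TPSI1 had a low array in each WT group, with 11.13 on water replicate 2 (others 11.78 to 11.97), 11.53 on low N replicate 5 (others 11.88 to 11.98) and 10.16 on high N replicate 1 (others 11.68 to 12.06). All 8 were low readings. No cause was tested.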

How the results depend on the processing

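The 28 limma values for PT1 and PT2 were recomputed under 12 other settings; 315 of 336 values kept direction and side of the threshold, 6 lost the call, 10 gained it and 5 reversed, none of the latter called. The cause was not tested. Scaled to the poly-A spikes, PT1 in WT high N against water stood at 1.06 and its rmc minus WT mean at 0.22, both no longer called, and its rmc minus WT in water reversed to -0.079. On that scale PT2 in rmc high N against water (1.53) and over both genotypes (1.21), and high N against low N in rmc for PT1 (1.05) and PT2 (1.12), became called. With array weights the newly called values were PT1 in rmc high N against low N (0.50), PT1 with low N over both genotypes (0.40), PT2 with high N over both genotypes (0.47), PT2 in rmc minus WT in water (1.75) and in low N (1.099), and PT1 in rmc minus WT in high N (0.54). Those weights reversed PT2 in rmc low N against water (-0.16), the PT1 low N response of rmc minus WT (-0.000239) and the PT2 high N response (-0.10); median centring reversed that PT1 response too (-0.017). With only the groups compared, which leaves fewer arrays, PT1 in rmc high N against water (0.92) and PT2 in rmc minus WT in high N (1.46) lost the call, as the latter did after quantile normalization (1.43) and without moderation (1.46).

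Leaving out 1 array at a time, 375 of 400 limma values kept direction and call, and none of the 13 that reversed was called. The ranges were -0.16 to 0.25 for PT2 in WT high N against low N, -0.33 to 0.36 for PT2 in rmc low N against water, 0.36 to 0.52 for PT1 with low N over both genotypes, and 0.39 to 0.74 for PT2 with high N over both. They were 0.35 to 0.75 for PT2 in WT high N against water, 0.22 to 0.92 in rmc, 0.07 to 0.40 for PT1 in rmc minus WT in water, 1.097 to 1.79 for PT2 in rmc minus WT in water, 1.26 to 1.67 in high N, -0.10 to 0.23 for the PT1 low N response and -0.33 to 0.36 for the PT2 high N response of rmc minus WT. For PT1 minus PT2 they were -0.24 to 0.0044 for WT low N against water, -1.40 to -0.92 for rmc minus WT in water and -0.22 to 0.16 for rmc high N against low N. Under 4 other settings all 48 values of PT1 minus PT2 kept direction and call.

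The replicate block changed none of the 40 calls it was fitted for, and 6 of 30 arrays matched best with their own number in another group; for PT2 in rmc minus WT in high N the block gave 1.46 (limma adjusted p = 0.0367). The share of probe sets called in WT high N against water was 18.3%, and 0.120% to 36.6% under the other settings. It was 4.34% and 0.0531% to 85.2% in rmc, 34.1% and 24.96% to 77.8% over both genotypes, 0.704% and 0% to 40.6% for high N against low N in rmc, and 12.3% and 1.90% to 28.6% for rmc minus WT over the treatments. For rmc minus WT it was 0.478% and 0.266% to 2.96% in water, 1.95% and 0.292% to 3.93% in low N, and 1.09% and 0.0664% to 8.73% in high N. The mean over several probe sets of a gene was not run, as each gene has 1. Signal over background does not limit either gene, whereas 5 arrays a group do.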
